A study of Vitis amurensis with 6 samples.

Results

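In cold-treated callus of Vitis amurensis, the Amur grape, 122 of 16645 genes in the deposited table (0.733%) stood at least 4-fold higher with VaWRKY12 overexpression than in EV. Levels are in CPM, counts per 1000000 reads of the library in the table. A gene was taken when its lowest VaWRKY12 library exceeded its highest EV library, when its mean VaWRKY12 level was 2 CPM or more, and when the ratio of the means, each raised by 0.3 CPM, was 4 or more. These values chose the genes, so the difference between the genotypes, including the lack of overlap between their libraries, is described for them and not tested. By their level in EV they fell into 14 near-silent genes with at most 3 reads in each EV library, 41 low genes below a mean of 1 CPM, and 67 expressed genes at 1 CPM or more.

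The VaWRKY12 overexpression group and the EV group each held 3 libraries of total RNA. Callus is a mass of unorganised plant cells in culture. Per the labels' protocols it was raised in both groups from transformed petiole segments, selected on solid B5 medium with 20 mg/L kanamycin, and kept in the dark at 25 °C. Every library came from callus held at 4 °C for 24 h, 15 days after it had been moved to new medium, so genotype is the one labelled difference between the groups. The genotype label of the EV libraries reads Envelope. The labels name no promoter for VaWRKY12. They also record no separate callus lines or cultures for the 3 libraries of a group, so a test measures only the spread between these libraries, which may be technical. In bulk RNA, more cells that express a gene and more RNA per cell cannot be told apart.

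WRKY proteins are plant transcription factors named after a conserved stretch of their DNA-binding domain. They bind promoter elements called W boxes, can activate or repress their targets, and are best known for roles in defence and in responses to stress, including cold and drought. Cold acclimation in plants is also driven by other transcription factors, the CBF proteins, which switch on protective genes during the first hours at low temperature. The files give gene identifiers, exon positions and reads but pair no identifier with a name. The genes are therefore described by level, structure and position, and the row of VaWRKY12 itself, which would check the genotype labels, was not identified here.

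The libraries held 9139429 to 14966502 reads with VaWRKY12 and 8795632 to 10647037 reads in EV, so that 3 reads stood for 0.200 to 0.341 CPM. VaWRKY12 replicate 3 stood further from replicates 1 and 2 (correlation of log2 CPM across genes 0.973 and 0.974) than these did from each other (0.987), and the EV libraries correlated at 0.98 to 0.986. Markers of callus or of other cell types could not be looked up without gene names.

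Summed over the 122 genes, the level was 2858, 2572 and 2459 CPM in the VaWRKY12 libraries, against 468, 377 and 479 CPM in the EV libraries. The means were 2629 ± 206 CPM with VaWRKY12 and 441 ± 55.7 CPM in EV (SD, n = 3 each), a ratio of 5.96. The expressed genes carried most of this sum, with 2580, 2297 and 2236 CPM with VaWRKY12 and 449, 358 and 455 CPM in EV. The low genes added 226, 214 and 171 CPM with VaWRKY12 and 18.1, 18.3 and 21.9 CPM in EV. The near-silent genes added 51.6, 61.2 and 51.1 CPM with VaWRKY12 and 0.928, 0.970 and 2.08 CPM in EV. The 10 most abundant genes held 46.7% of the VaWRKY12 sum.

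The median ratio was 5.45 over the 122 genes and 1.02 over all genes of the table. It was 9.599 for the near-silent, 6.13 for the low and 5.01 for the expressed genes, and only 23 genes reached 8. The 0.3 CPM added to each mean lowers these ratios most in the near-silent genes. Most were modest transcripts even with VaWRKY12. Per kilobase of coding length (RPKM), their median VaWRKY12 level of 7.10 lay at percentile 23.3 of the table, and their median EV level of 0.904 lay at percentile 3.39. The near-silent genes had a median of 2.84 RPKM with VaWRKY12, the low genes 4.34 and the expressed genes 14.1, against 23.1 RPKM for all genes.

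**Figure D1:**
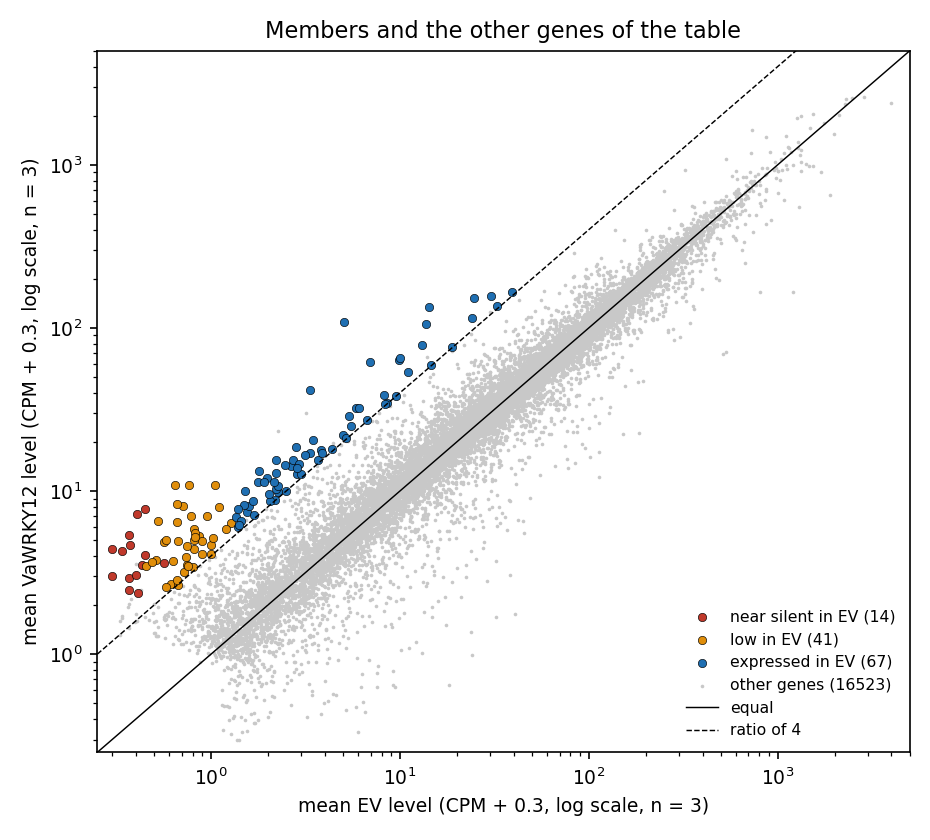
Mean VaWRKY12 level against mean EV level of each gene, both as CPM plus 0.3 on log axes (n = 3 libraries each). Coloured points are the 122 genes (members in the plot) by class and grey points the rest of the table. The near-silent genes lie at the left edge, and the expressed genes reach 167 CPM with VaWRKY12 and 39.1 CPM in EV.

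Across all genes, 3006 (18.1%) had every VaWRKY12 library above every EV library, and 139 had a ratio of 4 or more. Of these 139, another 9 reached the level of 2 CPM but overlapped between the groups, and 8 did not overlap but lay under 2 CPM. An edgeR quasi-likelihood test over 16317 genes (Benjamini-Hochberg adjusted p under 0.05) called 5.75% of genes higher and 6.16% lower with VaWRKY12. It could test 117 of the 122 genes and called all 117 higher. The other 5 fell under its filter on low counts, namely the near-silent GSVIVT01015768001, GSVIVT01028184001 and GSVIVT01036071001 and the low GSVIVT01015290001 and GSVIVT01016943001. The authors' deposited table put 116 of the 122 under a false discovery rate of 0.05, with 5.67% of all its genes under it and higher. As the rule used the same contrast, these counts carry no support of their own.

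At the threshold, the genes with the smallest ratios inside were GSVIVT01016943001 at 4.00, GSVIVT01022245001 at 4.01 and GSVIVT01013694001 at 4.02. Just outside it, and meeting the other conditions, were GSVIVT01026068001 at 3.98, GSVIVT01019414001 at 3.95 and GSVIVT01033797001 at 3.93. The last inside, GSVIVT01016943001 on chromosome 9, had 1.22, 0.965 and 4.91 CPM with VaWRKY12 and 0.777, 0.0939 and 0.227 CPM in EV. Its place rests on VaWRKY12 replicate 3, whose level was over 2 times that of either other library.

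The 14 near-silent genes had 4 to 117 reads in a VaWRKY12 library and 0 to 3 reads in an EV library. Of their 42 EV values, 16 were 0, and 11 of the genes were at 0 in at least 1 EV library. Each listed gene reached 1 CPM in 2 or more libraries, so a gene near silent in EV was listed only if it was higher with VaWRKY12. The table held 36 genes with at most 3 reads in each EV library, of which 38.9% met the rule, and this share follows in part from that listing.

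GSVIVT01036071001 (chromosome 6, 21041266 to 21046146, plus strand, 4 exons) had 100, 49 and 4 reads with VaWRKY12 and 0 reads in all 3 EV libraries. It was the most uneven of the 122 genes, with 15.3 times as high a level in VaWRKY12 replicate 1 as in replicate 3, where 4 reads stood close to the floor of 3. Its reads pooled over libraries, set against a floor of 3 reads over the EV group, were at least 45.4-fold higher with VaWRKY12. This bound holds for pooled reads only, leaves out the spread between libraries, and rests on VaWRKY12 replicates 1 and 2. GSVIVT01027412001 (chromosome 15, 16926728 to 16928476, minus strand, 5 exons) was the other gene with no EV read. It had 26, 32 and 27 reads with VaWRKY12, levels within 2 times of each other, and its pooled reads were at least 25.2-fold higher.

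GSVIVT01001198001 (chromosome 7, 882790 to 888015, 11 exons) had the most VaWRKY12 reads of the class, with 111, 117 and 21 reads with VaWRKY12 and 1, 0 and 3 reads in EV. The ratio of the summed reads, scaled by the summed library totals, was 55.4, with a 95% exact counting interval of 21.4 to 205. VaWRKY12 replicate 3 was low, though above each EV library. GSVIVT01035801001 (chromosome 4, 4478872 to 4485156, 12 exons) had 90, 41 and 95 reads with VaWRKY12 and 0, 1 and 2 reads in EV, a ratio of 67.0 (22.6 to 327). Here replicate 3 was the highest of the VaWRKY12 libraries. These intervals cover counting error only and not the spread between libraries.

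Replicate 3 with VaWRKY12 also stood apart in several other near-silent genes, in both directions. GSVIVT01032007001 (chromosome 13, 23604143 to 23631345, 15 exons) had 18, 24 and 105 reads with VaWRKY12 and 0, 1 and 1 reads in EV, so most of its reads came from that library. GSVIVT01015768001 (chromosome 3, 17178217 to 17218628, 21 exons) had 100, 44 and 6 reads with VaWRKY12 and 0, 0 and 1 reads in EV. GSVIVT01028184001 (chromosome 7, 4472100 to 4475760, 5 exons) had 54, 53 and 4 reads with VaWRKY12 and 2, 1 and 1 reads in EV. In both of these, the separation in replicate 3 came to a few reads.

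In the other 7 near-silent genes the highest VaWRKY12 library was at most 2.53 times the lowest. GSVIVT01036017001 (chromosome 4, 4 exons) had 58.3, 57.2 and 27.8 reads with VaWRKY12 and 1.05, 0 and 1 in EV. GSVIVT01016672001 (chromosome 9, 6 exons) had 53, 35 and 37 reads with VaWRKY12 and 0, 1 and 3 in EV. GSVIVT01023850001 (chromosome 3, 10 exons) had 60, 30 and 25 reads with VaWRKY12 and 3, 3 and 2 in EV. The last had the most EV reads of the class, 8 in all, with a ratio of 12.8 (6.28 to 30.3). GSVIVT01036462001 (chromosome 14, 3 exons) had 29, 33 and 26 reads with VaWRKY12 and 0, 2 and 1 in EV. GSVIVT01016741001 (chromosome 9, 5 exons) had 22, 25 and 34 reads with VaWRKY12 and 1, 0 and 1 in EV. In GSVIVT01016741001 VaWRKY12 replicate 3 was the highest library, as it was in GSVIVT01037569001 (chromosome 6, 6 exons), with 21, 15 and 32 reads with VaWRKY12 and 0, 1 and 1 in EV. GSVIVT01014447001 (chromosome 19, 2 exons) had 29.6, 15.5 and 23.6 reads with VaWRKY12 and 1.5, 0.33 and 1.33 in EV. The low gene GSVIVT01014448001 next to it also had fractions of reads, so the split of reads between neighbours is uncertain there.

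**Figure D2:**
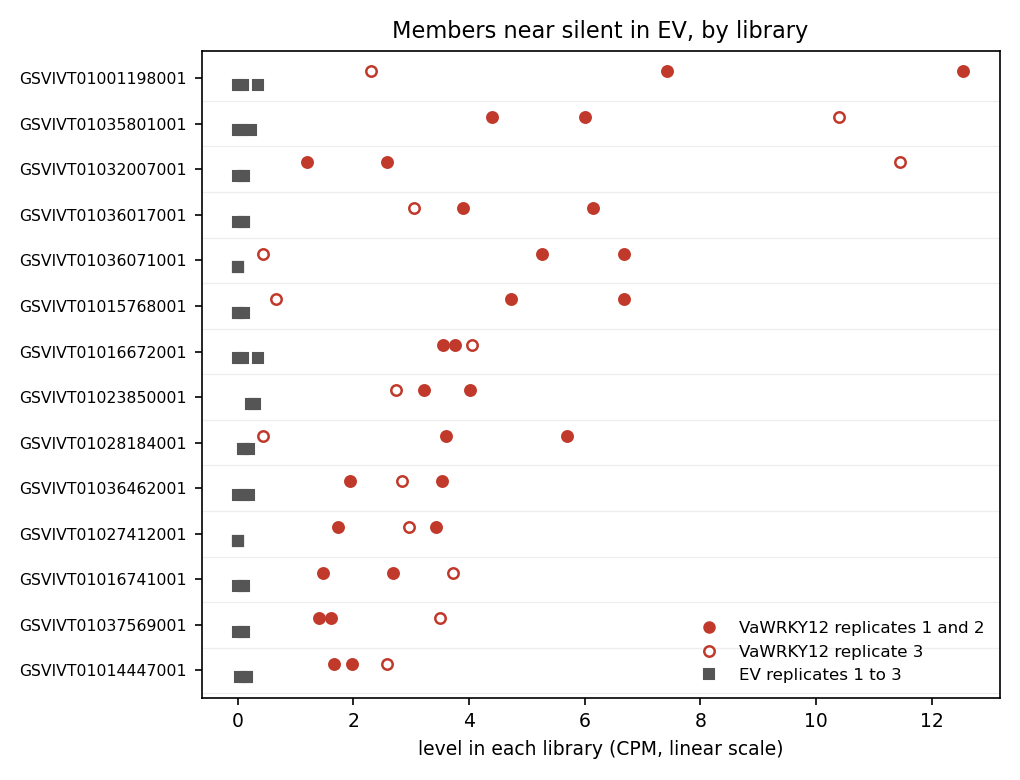
Level of each of the 14 near-silent genes in every library, in CPM on a linear axis. Red circles are VaWRKY12 libraries (open for replicate 3) and grey squares EV libraries. By the rule no gene overlaps between the groups. The open circle falls far to the left for GSVIVT01036071001, GSVIVT01015768001 and GSVIVT01028184001 and far to the right for GSVIVT01032007001.

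The 41 low genes had 9 reads or more in every VaWRKY12 library and at most 14 reads in an EV library, and 6 of them were at 0 in at least 1 EV library. GSVIVT01013771001 (chromosome 1, 7736722 to 7740412, 7 exons) had 15.2, 15.3 and 1.31 CPM with VaWRKY12 and 0.389, 0.564 and 0.455 CPM in EV. GSVIVT01009064001 (chromosome 18, 4643504 to 4644386, 3 exons) had 9.82, 12.3 and 1.09 CPM with VaWRKY12 and 0, 0.657 and 0.568 CPM in EV. Both were high in VaWRKY12 replicates 1 and 2 and close to EV in replicate 3. GSVIVT01015194001 (chromosome 11, 1702684 to 1704880, 6 exons) went the other way, with 4.14, 4.61 and 15.3 CPM with VaWRKY12 and 0.292, 0.564 and 0.227 CPM in EV. GSVIVT01018460001 (chromosome 16, 14755512 to 14756541, 3 exons) had the largest ratio of the class, 16.8, with 8.22, 8.80 and 14.6 CPM with VaWRKY12 and 0.292, 0.282 and 0.455 CPM in EV. All its VaWRKY12 libraries lay well clear of EV. GSVIVT01036238001 (chromosome 14, 8288918 to 8294668, 6 exons) had 13.99, 8.96 and 8.88 CPM with VaWRKY12 and 0.335, 0.688 and 1.23 CPM in EV, and its reads were partly fractional.

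Among the 67 expressed genes, 28 had a mean VaWRKY12 level of 20 CPM or more and 8 of 100 CPM or more. GSVIVT01015498001 (chromosome 11, 4233745 to 4234557, 4 exons) had the highest level per length of the 122 genes in both genotypes. It had 145, 157 and 198 CPM with VaWRKY12 and 44.3, 39.1 and 33.9 CPM in EV. That was 515 RPKM with VaWRKY12 and 121 RPKM in EV. GSVIVT01015220001 (chromosome 11, 1906418 to 1907580, 3 exons) had 174, 146 and 147 CPM with VaWRKY12 and 33.7, 30.6 and 25.6 CPM in EV. These levels were even within each genotype, and the gap between the genotypes was several times the spread between libraries. GSVIVT01003157001 (chromosome 3, 6124675 to 6126114, 3 exons) had 146, 183 and 127 CPM with VaWRKY12 and 36.2, 12.5 and 24.1 CPM in EV. GSVIVT01021978001 (chromosome 14, 4804879 to 4808395, 11 exons) had 136, 161 and 112 CPM with VaWRKY12 and 36.4, 26.5 and 34.6 CPM in EV. GSVIVT01013328001 (chromosome 12, 12140487 to 12144352, 8 exons) had 136, 119 and 90.2 CPM with VaWRKY12 and 21.1, 23.9 and 26.1 CPM in EV. In these genes the lowest VaWRKY12 library was over 3 times the highest EV library.

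GSVIVT01035695001 (chromosome 4, 3391799 to 3392575, plus strand, 4 exons) had the largest ratio of the whole table, 21.3, with 0.3 CPM added. That constant lowers the ratio of genes near silent in EV. Without it, the summed reads of the near-silent GSVIVT01015768001 gave a ratio of 133 (23.6 to 5304). GSVIVT01035695001 had 198, 72.2 and 52.4 CPM with VaWRKY12 and 2.17, 1.58 and 10.6 CPM in EV. Its libraries were uneven in both genotypes, and its reads were partly fractional, so its level may be shared with another gene model. GSVIVT01017644001 (chromosome 5, 2341090 to 2342908, 6 exons) had 73.1, 44.0 and 7.003 CPM with VaWRKY12 and 2.33, 3.19 and 3.64 CPM in EV, a ratio of 12.4. GSVIVT01026985001 (chromosome 15, 18819140 to 18821441, 8 exons) had 203, 164 and 37.4 CPM with VaWRKY12 and 10.01, 12.2 and 19.4 CPM in EV, a ratio of 9.53. Both large ratios rest on replicates 1 and 2, since in replicate 3 these genes were below 2 times their highest EV level. GSVIVT01022158001 (chromosome 7, 17118840 to 17121502, 10 exons) had 58.9, 43.2 and 82.9 CPM with VaWRKY12 and 8.94, 3.10 and 7.96 CPM in EV, a ratio of 8.90. GSVIVT01032718001 (chromosome 13, 1285009 to 1285430, 3 exons) had 77.2, 97.6 and 142 CPM with VaWRKY12 and 18.5, 12.9 and 9.21 CPM in EV, a ratio of 7.67. These were high in all VaWRKY12 libraries, with replicate 3 highest. GSVIVT01013726001 (chromosome 1, 8170639 to 8175052, 9 exons) had 25.3, 51.6 and 156 CPM with VaWRKY12 and 10.6, 9.49 and 18.5 CPM in EV. GSVIVT01015306001 (chromosome 11, 2530901 to 2536294, 11 exons) had 72.6, 109 and 47.8 CPM with VaWRKY12 and 16.4, 16.4 and 22.9 CPM in EV. Replicate 3 was thus the highest VaWRKY12 library of one of these genes and the lowest of the other.

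**Figure D3:**
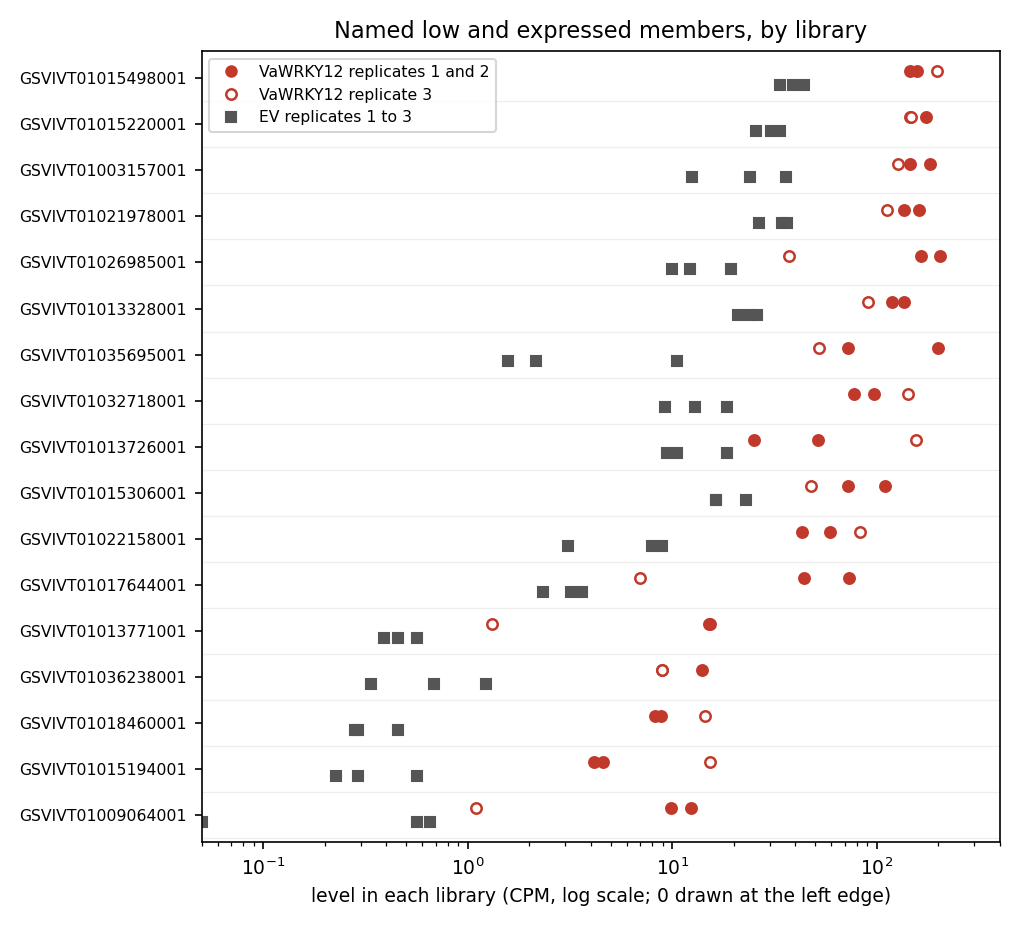
Level of the low genes with the highest CPM, and of the expressed genes with the highest CPM or ratio, in every library, in CPM on a log axis, with a value of 0 drawn at the left edge. Red circles are VaWRKY12 libraries (open for replicate 3) and grey squares EV libraries. The points of GSVIVT01015498001 and GSVIVT01015220001 lie close together within each genotype on this log axis. GSVIVT01013771001 and GSVIVT01017644001 have an open circle near EV.

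The VaWRKY12 libraries differed more from one another in these genes than over all genes of the table, which include them. The same values chose the genes, and a high mean can rest on 1 or 2 libraries. Part of this spread may therefore follow from the choice. The highest of the 3 was at least 2 times the lowest in 56 of the 122 genes (45.9%), against 7.84% of all genes with a mean VaWRKY12 level of 2 CPM or more. At 2 to 5 CPM these shares were 50% and 26.4%, at 5 to 20 CPM 48.2% and 10.9%, and from 20 CPM 35.7% and 2.99%. Replicate 3 was over 2 times lower than either other library in 17 genes (13.9%, against 2.47% of genes of the table with a mean of 2 CPM or more). It was over 2 times higher than either in 11 genes (9.02%, against 0.487%). The 17 genes with a low replicate 3 were 4 near-silent, 9 low and 4 expressed genes, and the 11 with a high one were 2 near-silent, 2 low and 7 expressed genes. Replicates 1 and 2 stood apart in the same way in 8 genes and in 1 gene, by the same limit. No share over the table is given for replicates 1 and 2. The part of replicate 3 in these levels was not tested beyond the values without it that follow.

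The rule was applied again without each library in turn, which left that library's values unused. The other genotype's libraries still chose the genes and also enter the comparison, so the shares that follow are in part set by the choice. The shares over all genes beside them include the chosen genes and are no value for genes without a difference. In VaWRKY12 replicate 3, for example, 60 of the 136 genes of the table with a ratio of 4 or more were chosen ones. Without VaWRKY12 replicate 3 it took 129 genes, 102 of them among the 122. In replicate 3, 87.6% of these 129 lay above every EV library, against 36% of all genes, and 46.5% had a ratio of 4 or more, against 0.817%, with a median ratio of 3.77. Without VaWRKY12 replicate 1 it took 114 genes, and in replicate 1 all 114 lay above EV, against 39.1% of all genes, 75.4% of them with a ratio of 4 or more, against 0.997%. Without VaWRKY12 replicate 2 it took 128 genes, and in replicate 2 all 128 lay above EV, against 35.1% of all genes, 70.3% of them with a ratio of 4 or more, against 0.799%. Among the VaWRKY12 libraries, the share with a ratio of 4 or more was lowest for replicate 3.

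The EV libraries were left out in the same way, and the VaWRKY12 libraries they were set against had chosen the genes. EV replicate 1 lay below every VaWRKY12 library in all 120 genes taken without it, against 34.8% of all genes. EV replicate 3 did so in 99.2% of 131 genes, against 30.5% of all genes, and EV replicate 2 in 90.2% of 122 genes, against 34.4% of all genes. The ratio was 4 or more for 74.2% of those genes in EV replicate 1, against 1.06% of all genes, for 74.6% in EV replicate 2, against 1.2%, and for 64.1% in EV replicate 3, against 0.895%. Among the 67 expressed genes, EV replicate 2 was the lowest EV library in 37 (55.2%), against 33.2% of genes of the table. In the other classes EV replicates 1 and 2 lay close. EV replicate 1 was counted lowest in 18 of 41 low genes (43.9%), and EV replicate 2 in 15 (36.6%). Of the 12 near-silent genes not at 0 throughout EV, the counts were 6 (50%) and 5 (41.7%). Over the table the shares were 38.9% and 33.2%. A tie at 0 was counted for the replicate with the lower number, as in GSVIVT01015768001, so these counts do not rank the 2 replicates.

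In structure, the 122 genes combined somewhat longer coding sequences with shorter introns than the table at large. Their median coding length was 1305 bp, against 1080 bp for all genes, and 62.3% of them lay above the table's median, while the median number of exons was 6 in both sets. The longest intron had a median of 774 bp among those with introns, against 1531 bp in the table. Every intron was under 1 kb, or there was none, in 58.2% of the 122, against 37.8% of all genes and 35.6% of genes with a mean VaWRKY12 level of 2 CPM or more. The share was alike in the near-silent (57.1%), low (58.5%) and expressed genes (58.2%). It was also 56.1% in the 446 other genes of the table that were near silent or low in EV. The median coding length was 1347 bp in the near-silent and 1149 bp in the low genes described here, against 930 bp in those 446 genes. The 446 had no minimum VaWRKY12 level, so the sets are not matched in level. Over all genes with a mean VaWRKY12 level of 2 CPM or more the median was 1104 bp.

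Long introns were about as frequent as in the table. An intron of 10 kb or more was found in 8 genes (6.56%, against 6.57% of all genes), of which 3 were near silent, 3 low and 2 expressed. The longest, 24576 bp, was in the low gene GSVIVT01020559001 (chromosome 12, 4363640 to 4390088), which had 2.54, 5.15 and 3.72 CPM with VaWRKY12 and 0.389, 0.845 and 0.568 CPM in EV. The longest gene, 40412 bp over 21 exons, was the near-silent GSVIVT01015768001. The most exons, 37, were in the low gene GSVIVT01008436001 (chromosome 17, 2054702 to 2088910), which had 2.33, 2.68 and 2.19 CPM with VaWRKY12 and 0.292, 0.188 and 0.455 CPM in EV. The longest coding length, 6471 bp, was in the expressed gene GSVIVT01008603001 (chromosome 17, 484106 to 501798), which had 8.17, 8.90 and 11.7 CPM with VaWRKY12 and 1.75, 1.78 and 2.39 CPM in EV. A single exon was found in 3 genes, all low (2.46%, against 2.78% of all genes). Fractional reads, which may mark reads shared with other gene models, occurred in 28.7% of the 122 genes, against 39.8% of all genes. The share was 21.4% in the near-silent, 29.3% in the low and 29.9% in the expressed genes. It was 26.2% in the 446 other genes near silent or low in EV.

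**Figure D4:**
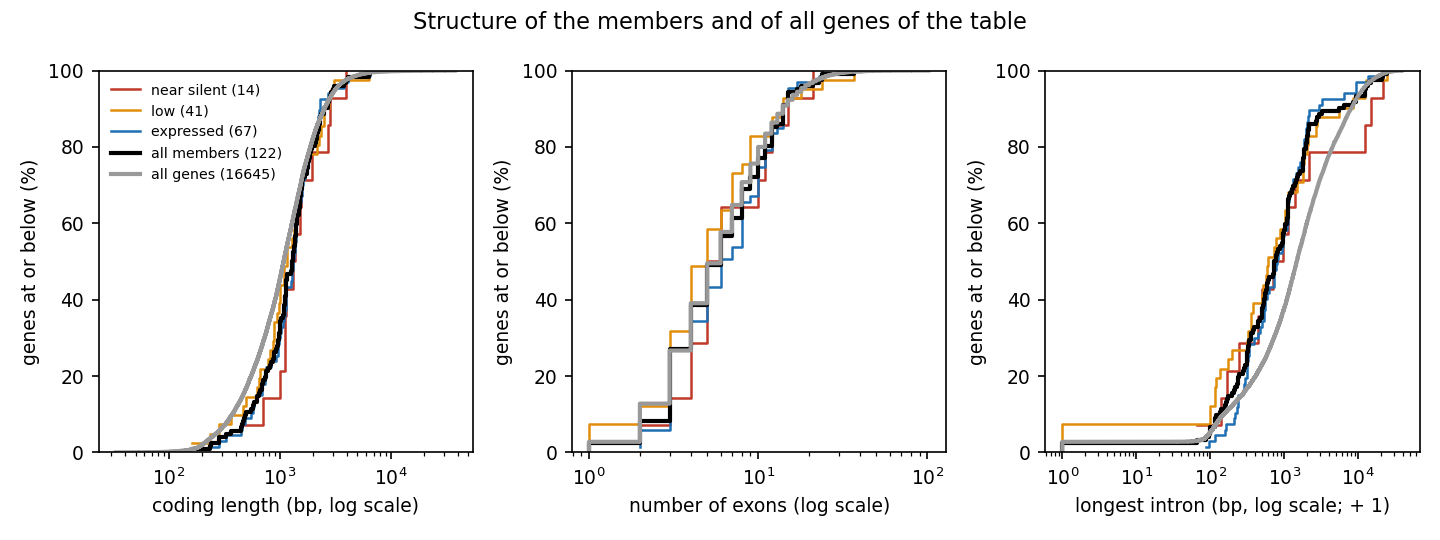
Cumulative share of genes (%) at or below a given coding length (bp), number of exons and longest intron (bp plus 1, so that genes of 1 exon lie at 1), on log axes. Coloured lines are the 3 classes, black the 122 genes (members in the plot) and grey all genes. The curves for exons nearly coincide, with a median of 6 in both sets, while the longest intron is shifted to shorter lengths, with a median of 774 bp against 1531 bp.

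The genes lay on all 19 chromosomes, with 2 to 11 on each. Chromosome 12 held 11 of its 727 genes in the table and chromosome 11 held 11 of 760, shares of 1.51% and 1.45% beside 0.733% overall. The sequence named 18_random held 5 of its 81 genes (6.17%), and 11 genes in all lay on unplaced or random sequences (9.02%, against 8.34% of all genes). Positions are those in the deposited table, whose genome build was not given in the sources used here.

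Of the 122 genes, 22 were next to another of them in the table's order, in 9 runs, 3 of which held 3 genes or more. In every run all genes were on 1 strand. Of the 244 places next to a gene described here, 26 (10.7%) were taken by another of them, where the 122 make up 0.733% of all genes. Fractional reads occurred in 12 of the 22 genes in runs and in 23 of the 100 others, so part of the neighbouring pairs may share reads. The gaps within runs were 125 to 115382 bp, and 13 of the genes lay within 10 kb of another. How often other neighbours of the table share a strand or lie within 10 kb is not given, so these traits may be usual. A start within 2 kb of the start of a gene on the other strand was found for 1 gene (0.820%, against 5.80% of all genes). This was GSVIVT01033332001, with means of 33.8 CPM with VaWRKY12 and 8.04 CPM in EV, whose partner GSVIVT01033331001, 903 bp away, had 7.02 CPM with VaWRKY12 and 5.54 CPM in EV, a ratio of 1.25.

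The longest run held 4 genes on the minus strand of 18_random between 2632662 and 2732180, with 7 or 8 exons and coding lengths of 1770 to 2286 bp. GSVIVT01013687001 had 11.3, 12.7 and 11.4 CPM with VaWRKY12 and 2.15, 0.704 and 2.16 CPM in EV. GSVIVT01013689001 had 5.45, 7.62 and 5.07 CPM with VaWRKY12 and 0.843, 0.939 and 1.14 CPM in EV. Both had fractional reads, while the other genes of the run had whole reads. GSVIVT01013694001 had 9.49, 8.47 and 7.55 CPM with VaWRKY12 and 2.24, 0.939 and 2.50 CPM in EV. GSVIVT01013695001 had 15.5, 16.9 and 13.02 CPM with VaWRKY12 and 3.11, 1.31 and 2.84 CPM in EV. The VaWRKY12 libraries were even in all 4 genes, and in 3 of them EV replicate 2 was the lowest library.

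The run on chromosome 4, between 3367197 and 3392575 on the plus strand, held short genes with coding lengths of 483, 282 and 285 bp. GSVIVT01035690001 had 21.2, 7.83 and 4.05 CPM with VaWRKY12 and 1.26, 1.60 and 1.59 CPM in EV. GSVIVT01035692001 had 5.35, 2.79 and 1.97 CPM with VaWRKY12 and 0, 0 and 0.568 CPM in EV. With GSVIVT01035695001, described above, they shared an order of VaWRKY12 libraries, with replicate 1 highest and replicate 3 lowest. Replicate 3 was the lowest in 54.1% of the 122 genes and 46.5% of all genes from 2 CPM, so this order may be usual.

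Genes next to these but not among them were also examined, 217 in all. The edgeR test covered 213 of them and called 37 higher with VaWRKY12 (17.4%, against 5.75% of all genes tested) and 7 lower (3.29%, against 6.16%). Their median log2 fold change was 0.11, against 0.01 over all genes tested. Among pairs in which both neighbours had whole reads only, 12 of 100 were called higher (12%, against 6.36% of whole-read genes). The strand use of the counting was not stated, so overlapping genes on opposite strands cannot be told apart.

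Genes of a family often keep the lengths of their exons. Consecutive exons of equal length, at least 4 in a row, were therefore looked for among all genes with at least 4 exons. Such a series linked 31 of 89 of the genes described here (34.8%) to another gene of the table, against 3236 of 12204 genes (26.5%). Within the 122, 12 genes shared a series with another, in 4 groups of 5, 3, 2 and 2 genes. No like share is given for other sets of this size. GSVIVT01014117001 and GSVIVT01021292001, a group of 2, were linked only by exons of 72 bp in a row. They had 39 and 29 partners in the table, so their link is a common one. The group of 3 was part of the run on 18_random.

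The group of 5 consisted of GSVIVT01029227001, GSVIVT01029226001 and GSVIVT01029225001, a run on the plus strand of chromosome 11 between 18301081 and 18351149, with GSVIVT01032297001 (chromosome 11, 14746919 to 14749853) and GSVIVT01037797001 (chromosome 3, 7855764 to 7864719, minus strand). Exons of 146, 77, 123 and 103 bp followed each other in 4 of them, and all ended on an exon of 84 bp. GSVIVT01029227001 had 68.2, 71.0 and 49.7 CPM with VaWRKY12 and 12.1, 6.48 and 10.2 CPM in EV. GSVIVT01029226001 had 28.1, 29.9 and 27.2 CPM with VaWRKY12 and 7.48, 2.16 and 5.68 CPM in EV. GSVIVT01029225001 had 39.4, 40.8 and 34.9 CPM with VaWRKY12 and 10.6, 4.41 and 8.87 CPM in EV. These neighbours kept the same order of libraries, with EV replicate 2 lowest in EV and replicate 3 lowest with VaWRKY12. Each of these was also the lowest in over 50% of the 67 expressed genes (EV replicate 2, 55.2%) or of the 122 (VaWRKY12 replicate 3, 54.1%). GSVIVT01032297001 had 17.04, 17.2 and 14.9 CPM with VaWRKY12 and 3.30, 1.97 and 3.30 CPM in EV, and GSVIVT01037797001 had 15.97, 14.7 and 12.04 CPM with VaWRKY12 and 2.33, 0.939 and 3.18 CPM in EV. Of the 5, GSVIVT01029227001 alone had fractional reads, and the other 4 had whole reads in every library.

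Another 3 genes of the table shared these exon series and did not meet the rule. GSVIVT01037059001 (chromosome 3, 8252700 to 8257070) had 49.5, 40.5 and 24.7 CPM with VaWRKY12 and 11.9, 20.5 and 22.2 CPM in EV, a ratio of 2.09. GSVIVT01037791001 (chromosome 3, 7951352 to 7955585) had 79.8, 73.1 and 49.2 CPM with VaWRKY12 and 23.1, 38.1 and 38.3 CPM in EV, a ratio of 2.02. In both, all VaWRKY12 libraries lay above EV. GSVIVT01003805001 (7_random, 296714 to 302569) had 38.2, 35.0 and 25.1 CPM with VaWRKY12 and 48.4, 59.8 and 43.2 CPM in EV, a ratio of 0.651, and lay below EV. All 3 had fractional reads. Of all genes, 3.91% had a ratio of 2 or more, and in this set of 8 genes 7 did, 5 of them by the rule itself.

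**Figure D5:**
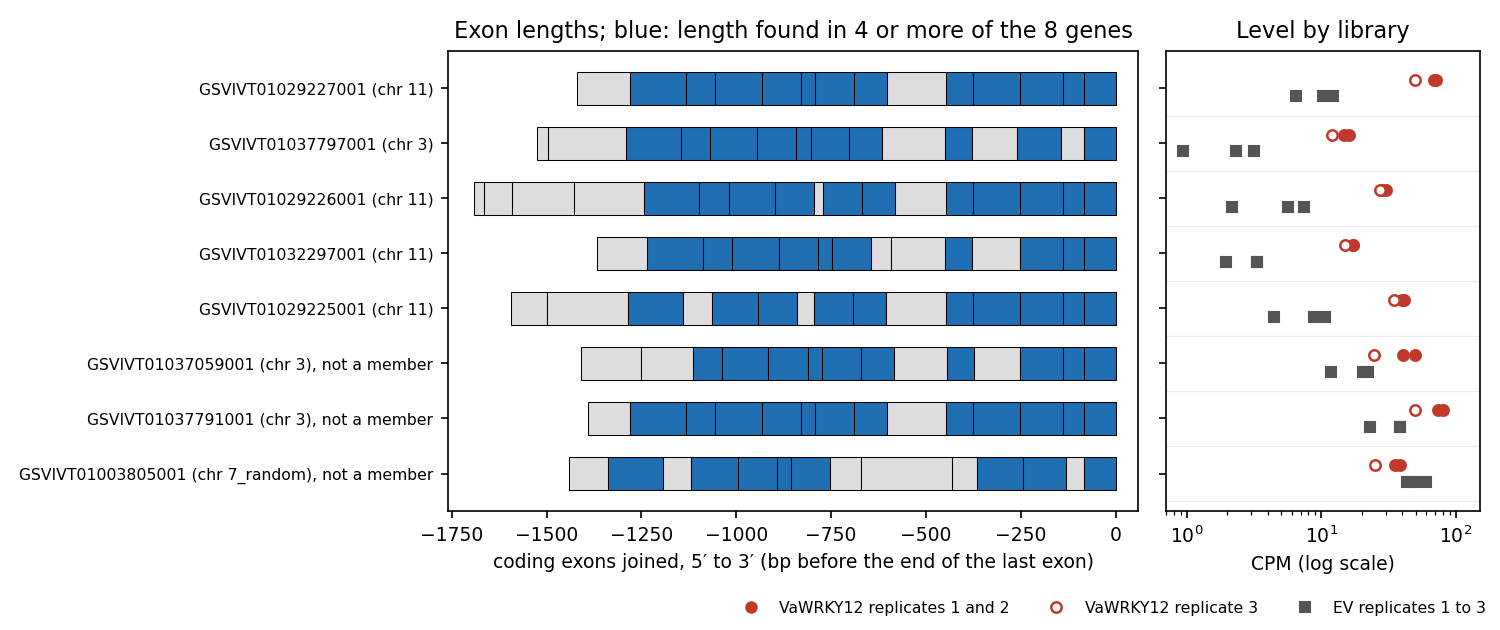
The 8 genes that share exon-length series, with the 5 that met the rule on top and the 3 that did not (not a member) beneath. Left, coding exons drawn to length and aligned at the end of the last exon, blue where that length occurs in at least 4 of the 8 genes. Right, the level in each library in CPM on a log axis, with VaWRKY12 as red circles (open for replicate 3) and EV as grey squares. The VaWRKY12 and EV points are separated in the upper 7 genes and reversed in GSVIVT01003805001.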

How the data were processed

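RNA-seq reads per gene in 6 libraries of cold-treated callus were taken from the table the authors deposited. Per the submitters' processing notes the tools were Trimmomatic, HISAT2 2.0.5 and edgeR, with no roles stated. Read counter, strand use, genome build and annotation were not given in the sources used here. By its headers, the table the authors deposited holds reads, taken here as an estimated count since 6623 genes have fractions (tolerance 1e-06), and RPKM values. Per the file headers it also holds the authors' log2 fold change, F score, p-value and false discovery rate per gene. No other columns of samples were present. Lengths are sums of exons and all multiples of 3, hence called coding length.

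CPM were computed from the deposited reads and column sums, without further scaling. Reads rounded to whole numbers were tested with edgeR 4.0.16 in R 4.3.3 (filterByExpr at a minimum count of 10, TMM factors, glmQLFit and glmQLFTest, two-sided, no covariate), over all genes, and with DESeq2 1.42.0 as an alternative. The edgeR test and the rule were checked on simulated data. Single comparisons of 3 against 3 libraries cannot go below an exact permutation p of 0.1, so none is given. Counting intervals are 95% exact binomial ones. The genes, lists and classes were chosen with earlier results of these data known. Genes named are those with the highest mean VaWRKY12 CPM in each class, the near-silent and expressed genes with the largest ratio, those with extreme structure, runs of 3 or more, those at the threshold, and the exon-length set, the rest of the near-silent class and GSVIVT01033332001 with its partner, added after their values were seen. The deviations of same-numbered libraries from their group means correlated at -0.063, 0.325 and 0.175, not above 0.1 in every pair, so numbers were not taken as pairs. Gene names, promoters and protein sequences were not used here.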

Additional observations from a re-analysis of the deposited data

How the results depend on the processing

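A constant of 1 CPM in the ratio left 62 genes (7 near-silent, 15 low, 40 expressed, 0 of 1 exon). A ratio of 8 left 23 (9, 10 and 4), with 69.6% having short introns only, 13.04% an intron of 10 kb, and 0 of 1 exon, next to another, on unplaced sequences or sharing an exon series. A mean of 5 CPM left 84 (3 near-silent, 14 low, 67 expressed, 0 of 1 exon). Limits of 0.3 and 2 CPM for the classes gave 21 near-silent, 58 low and 43 expressed genes. Whole-read genes alone gave 87 genes, 11.5% next to another, 6.56% sharing a series, with 627 higher and 589 lower of 9781 genes tested, against 939 and 1005 of 16317. Leaving out 1 library gave 114 to 131 genes, 14 to 23 near-silent, 37 to 42 low and 61 to 74 expressed (23 near-silent ones without EV replicate 3), and 91 to 121 called higher by edgeR. Over the table such refits called 455 to 985 genes higher and 525 to 978 lower. Library totals without TMM factors called 1010 higher and 881 lower, and DESeq2 1173 and 1195. The replicate block gave 1123 higher and 1129 lower, all 117 tested genes still called. The numbers are not taken to pair the libraries. Series of 3 or 5 exons, chosen after seeing the data, gave 12.5% and 14.7% sharing a series, against 13.5%. None of the 122 genes turned lower in any refit. The rule required every VaWRKY12 library to exceed every EV library, so this and the calls among the 122 carry no support of their own. The causes were not tested. Depth limits the near-silent genes, whose EV levels rest on at most 3 reads a library.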
